A study of Mus musculus with 8 samples.

Results

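The Asb genes encode ankyrin repeat proteins with a suppressor of cytokine signalling (SOCS) box, and 9 of them, grouped as adaptors of muscle ubiquitin ligases, were described in mouse ventricle with and without cardiac knockout of Med1. The members, Asb2, Asb5, Asb8, Asb10, Asb11, Asb12, Asb14, Asb15 and Asb18, were taken by symbol from a table of 23535 gene rows with values, using the row of the highest mean level for each symbol. The family was picked because Asb14 fell steeply in the comparison of knockout with WT, so the values of that comparison are a description of the members and no test is given for them. The table holds 18 Asb genes in all, the 9 members and 9 others.

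In an Asb protein the ankyrin repeats bind a target protein, and the SOCS box binds the elongin B and elongin C pair, which connects it to the scaffold Cullin 5 and its RING partner Rnf7. The assembled complex is an E3 ubiquitin ligase in which the Asb protein chooses the substrate, and attachment of the ubiquitin-like protein Nedd8 to the cullin switches the ligase on. Several family members are expressed mainly in heart and skeletal muscle, where the best studied, Asb2, directs filamins, the actin crosslinking proteins, to degradation. Med1 belongs to Mediator, through which transcription factors contact RNA polymerase II, and is its main contact with nuclear receptors.

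The study compared 2 groups of 4 libraries, both from ventricles of C57BL/6 mice at postnatal day 21. The Med1cKO group carried a knockout of Med1 in the heart, and the group called WT carried floxed Med1 (Med1fl/fl). Libraries were strand-specific and made from poly(A) RNA, and the values are FPKM, fragments scaled to transcript length and library size, so levels can be compared between genes. The labels name neither the promoter that drove the deletion nor whether each library came from 1 animal, so any p-value measures only the spread between these libraries.

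Promoter windows of 4 members show what the most reduced genes and the least changed genes have before their start sites. Each window is the 250 bases before the RefSeq start on GRCm38.p6, read 5′ to 3′ on the gene's strand. Asb14 (chr14:26894364-26894613, plus strand) and Asb15 (chr6:24527894-24528143, plus strand) had the lowest knockout levels relative to WT. Asb12 (chrX:95478130-95478379, minus strand) and Asb18 (chr1:90014667-90014916, minus strand) had knockout levels that overlapped WT. Capitals mark matches on either strand to 6 motifs of factors active in striated muscle, and the marked matches do not overlap each other. AGGTCA is the core motif of nuclear receptors. CAGCTG is an E-box of muscle helix-loop-helix factors. CATTCC is the MCAT motif of TEAD factors. AGATAA is a motif of GATA factors. MEF2 and CArG name the motifs of the factors MEF2 and SRF.
Asb14: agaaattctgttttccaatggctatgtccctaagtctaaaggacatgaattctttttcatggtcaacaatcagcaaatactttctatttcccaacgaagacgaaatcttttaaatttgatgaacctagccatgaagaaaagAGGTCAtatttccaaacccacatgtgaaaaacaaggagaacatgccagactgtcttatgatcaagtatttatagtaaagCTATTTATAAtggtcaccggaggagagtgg
Asb15: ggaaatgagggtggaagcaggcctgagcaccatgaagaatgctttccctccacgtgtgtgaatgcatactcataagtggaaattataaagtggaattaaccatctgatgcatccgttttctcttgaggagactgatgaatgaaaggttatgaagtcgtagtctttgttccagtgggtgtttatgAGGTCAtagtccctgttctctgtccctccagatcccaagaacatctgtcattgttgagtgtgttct
Asb12: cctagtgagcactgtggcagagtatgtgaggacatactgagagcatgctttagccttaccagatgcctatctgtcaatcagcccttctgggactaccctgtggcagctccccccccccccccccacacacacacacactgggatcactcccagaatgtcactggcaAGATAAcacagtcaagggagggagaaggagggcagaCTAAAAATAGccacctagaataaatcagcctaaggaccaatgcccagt
Asb18: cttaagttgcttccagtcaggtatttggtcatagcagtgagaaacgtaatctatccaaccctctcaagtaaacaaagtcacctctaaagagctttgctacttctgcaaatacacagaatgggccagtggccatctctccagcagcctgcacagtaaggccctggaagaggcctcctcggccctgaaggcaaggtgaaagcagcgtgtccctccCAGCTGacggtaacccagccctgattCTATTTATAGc

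RefSeq gave 13 such windows for the 9 members, of 32851 for all genes. AGGTCA was found in 2 of the 13, those of Asb14 (bases 109 to 104 before the start) and Asb15 (bases 66 to 61), and in 14.0% of all windows. MEF2 matches were found in 4 of the 13 and in 2.92% of all windows. They lay at bases 30 to 21 in Asb14, 48 to 39 in Asb12 and 11 to 2 in Asb18. Another was in 1 of the 3 windows of Asb5, inside the gene's row (chr8:54550331-54587836). Bases after the start of that window were not found in a GENCODE transcript, nor were those of the Asb5 window without a match. MEF2 matches were thus shared by reduced members and by members whose groups overlapped. CArG matches were in 2 of the 13 windows (Asb2 and 1 window of Asb5) and in 1.47% of all. CATTCC was in 2 (Asb8 and Asb10) and in 12.6% of all, AGATAA in 1 (Asb12) and in 9.99%, and CAGCTG in 1 (Asb18) and in 4271 of the 32851. The Asb14 window was 36% G and C, against 44% in Asb15, 53.2% in Asb12 and 50.4% in Asb18. Other windows with matches also lay inside genes. That of Asb8 (chr15:98145703-98145952) was inside the gene's row. Those of Asb12 and of Asb5 with the CArG match were inside the GENCODE genes (chrX:95470201-95557987 and chr8:54529580-54587842). The GENCODE start of Asb14 (chr14:26894557) lay between its AGGTCA and MEF2 matches. All these matches describe letters in the windows and do not show binding.

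Med1 itself (chr11:98152155-98193293 on mm10) measured 7.80, 8.37, 7.89 and 9.15 FPKM in knockout libraries 1 to 4 and 15.5, 16.1, 10.6 and 16.8 FPKM in WT libraries 1 to 4. The groups did not overlap, and the knockout mean was 56.3% of WT. The values are totals per gene in whole ventricle, so the floxed exons were not seen separately. Summed FPKM was 481719 to 502629 in knockout and 507484 to 536174 in WT libraries, and the number of fragments per library is unknown. Of the 11975 genes that averaged 1 FPKM or more, limma on log2(FPKM + 1) called 44.9% higher and 16.4% lower in knockout at a Benjamini-Hochberg adjusted p under 0.05. The median change of all genes was 0.25 on that log2 scale, and after rescaling the libraries to equal medians of ratios 27.0% were higher and 26.9% lower (28.7% and 25.6% after quantile normalization).

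Of the 9 members, 7 were lower in knockout hearts by separation of the libraries, and none was higher. All 9 passed the minimum mean level. The 7 were Asb14, Asb15, Asb10, Asb2, Asb5, Asb11 and Asb8, and in each of them all 4 knockout libraries lay below all 4 WT libraries, a separation in that direction found in 15.3% of all tested genes. Because the family was chosen from this comparison, nothing is read from that difference in share. The median member change was -1.89 on the log2(FPKM + 1) scale, beside 0.25 for all genes tested. After both rescalings of the libraries these 7 kept a negative change, Asb12 was at -0.26 and Asb18 changed sign.

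Asb14, a member whose substrates are little known, was the most reduced (chr14:26894604-26915257, plus strand, 10 exons). Its level was 54.5, 42.1, 37.9 and 39.7 FPKM in WT libraries 1 to 4 and 1.01, 1.71, 0.930 and 0.836 FPKM in knockout libraries 1 to 4. Every WT library was thus far above every knockout library, and the highest knockout value was in library 2. The knockout mean of 1.12 ± 0.401 FPKM (SD, n = 4) was 2.57% of the WT mean of 43.6 ± 7.51 FPKM (SD, n = 4), which is 38.8-fold lower in FPKM. The log2(FPKM + 1) change was -4.40 ± 0.15 (SE), or 21.1-fold, since adding 1 FPKM understates the fall of a gene that ends near that level. Among the 11975 tested genes this was the fall of rank 6.

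Asb15, which is expressed in skeletal muscle and heart and has been linked to muscle growth, came next (chr6:24528144-24573164, plus strand, 10 exons). WT libraries 1 to 4 held 20.1, 19.5, 21.8 and 21.2 FPKM, and knockout libraries 1 to 4 held 0.885, 2.35, 1.60 and 0.905 FPKM. The WT libraries were nearly equal, while the knockout libraries differed among themselves, with a coefficient of variation of 48.4% against 5.07% in WT. The knockout values lay near 1 FPKM, and the part of counting error in their spread is unknown. The mean fell from 20.6 ± 1.05 to 1.44 ± 0.694 FPKM (SD, n = 4), 6.95% of WT or 14.4-fold lower, with a log2(FPKM + 1) change of -3.19 ± 0.17 (SE) and rank 20 by fall.

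The next group in size of change was formed by Asb2, Asb10 and Asb5. Asb2 (chr12:103321142-103356001, minus strand, 10 exons), the filamin adaptor, was the most abundant of the family. It measured 164, 128, 165 and 189 FPKM in WT libraries 1 to 4 and 34.5, 51.3, 33.2 and 32.3 FPKM in knockout libraries 1 to 4. Knockout library 2 stood above the other knockout libraries yet well below WT. The mean was 161 ± 25.0 FPKM in WT and 37.8 ± 9.01 FPKM in knockout (SD, n = 4), which is 23.4% of WT, with a log2(FPKM + 1) change of -2.08 ± 0.16 (SE).

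Asb10 (chr5:24532697-24540448, minus strand, 6 exons) measured 43.7, 37.4, 41.0 and 44.3 FPKM in WT and 12.8, 12.3, 7.88 and 4.37 FPKM in knockout libraries 1 to 4. The spread in knockout was wide, from library 1 at the top to library 4 at the bottom. Its mean was 22.5% of WT, 9.35 ± 3.99 against 41.6 ± 3.14 FPKM (SD, n = 4), with a log2(FPKM + 1) change of -2.13 ± 0.27 (SE). Asb5 (chr8:54550331-54587836, plus strand, 7 exons) measured 16.8, 16.0, 11.5 and 14.3 FPKM in WT and 3.35, 3.69, 5.24 and 1.39 FPKM in knockout libraries 1 to 4. Knockout library 4 was again the lowest. The Asb5 mean was 23.3% of WT, 3.42 ± 1.58 against 14.7 ± 2.35 FPKM (SD, n = 4), and the log2(FPKM + 1) change was -1.89 ± 0.26 (SE). Without knockout library 4 the changes were -1.85 for Asb10 and -1.63 for Asb5.

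Asb11 and Asb8 were reduced less. Asb11 (chrX:164438101-164459100, plus strand, 7 exons), whose fish counterpart acts on the Notch ligand Delta, measured 86.7, 87.5, 74.9 and 68.9 FPKM in WT and 45.8, 28.8, 29.8 and 33.8 FPKM in knockout libraries 1 to 4. Knockout library 1 was the highest of its group and still well below the lowest WT library. The mean was 43.5% of WT, 34.6 ± 7.82 against 79.5 ± 9.10 FPKM (SD, n = 4), with a log2(FPKM + 1) change of -1.20 ± 0.15 (SE).

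Asb8 (chr15:98134640-98165578, minus strand, 4 exons), a member found in many tissues, measured 47.0, 45.7, 46.0 and 52.2 FPKM in WT and 34.6, 35.8, 32.1 and 27.7 FPKM in knockout libraries 1 to 4. Both groups were tight and apart. The mean was 68.2% of WT, 32.5 ± 3.60 against 47.7 ± 3.05 FPKM (SD, n = 4), with a log2(FPKM + 1) change of -0.54 ± 0.093 (SE).

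Asb12 and Asb18 had overlapping groups. Asb12 (chrX:95470199-95478129, minus strand, 3 exons) measured 9.41, 7.94, 9.37 and 9.41 FPKM in WT and 6.82, 10.9, 11.3 and 7.60 FPKM in knockout libraries 1 to 4. The knockout libraries fell on both sides of WT, with means of 9.15 ± 2.26 and 9.03 ± 0.729 FPKM (SD, n = 4) and a log2(FPKM + 1) change of -0.0083 ± 0.15 (SE), which became -0.26 after either rescaling. Asb18 (chr1:89952678-90014577, minus strand, 6 exons), the least abundant member in WT, measured 2.32, 2.58, 2.47 and 2.20 FPKM in WT and 2.51, 3.60, 2.78 and 2.22 FPKM in knockout libraries 1 to 4. Its means were 2.39 ± 0.165 and 2.78 ± 0.597 FPKM (SD, n = 4) with a log2(FPKM + 1) change of 0.14 ± 0.12 (SE), which became -0.057 after median-of-ratios rescaling.

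**Figure D1:**
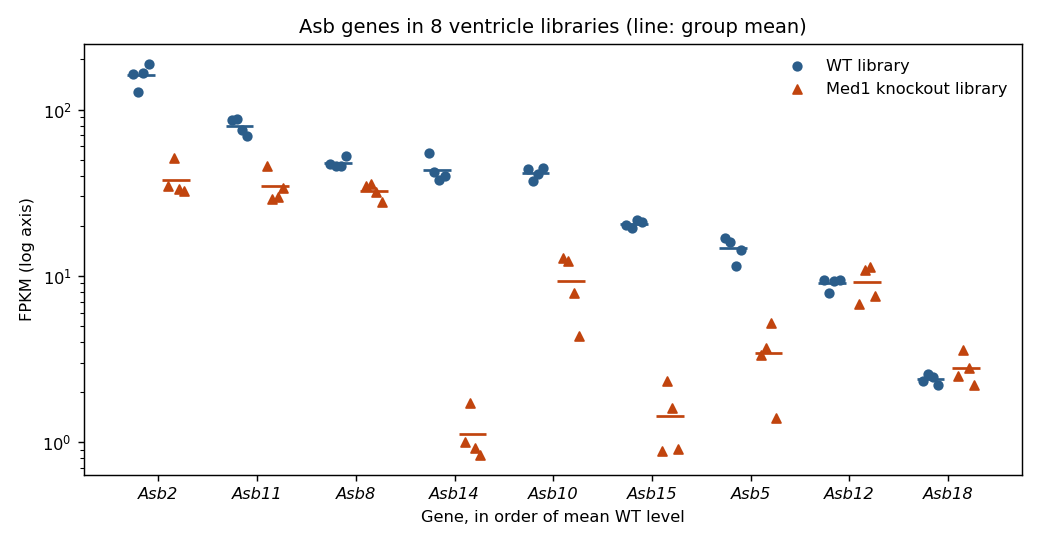
FPKM on a log axis of each Asb member in the 4 WT and 4 knockout libraries; points are libraries and short lines are group means. The groups are apart for 7 members, widest for Asb14 (43.6 against 1.12 FPKM on average), and overlap for Asb12 and Asb18.

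The order of the members by level also differed between the groups. In WT, Asb2 was highest, followed by Asb11, then Asb8, Asb14 and Asb10, whose neighbouring ranges overlapped, and then Asb15, Asb5, Asb12 and Asb18, each of which was apart from the next. In knockout, Asb2, Asb11 and Asb8 had overlapping neighbouring ranges, as did Asb10 with Asb12, and then Asb5, Asb18, Asb15 and Asb14 at the lower end. Asb14 was thus among the middle members in WT and the lowest in knockout. The 9 members summed to 387 to 444 FPKM in WT libraries and 111 to 150 FPKM in knockout libraries, the knockout mean of 132 ± 17.6 FPKM being 31.4% of the WT mean of 421 ± 27.2 FPKM (SD, n = 4).

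The make-up of that sum changed as well. On average Asb14 gave 10.4% of the summed member FPKM in WT and 0.836% in knockout, and Asb15 gave 4.92% and 1.07%. Asb8 gave 11.4% in WT and 24.7% in knockout although its own level was lower, and Asb12 gave 2.15% and 6.98%. Asb2 gave 38.3% in WT and 28.5% in knockout, and Asb11 gave 19.0% and 26.4%. Thus 3 genes, Asb2, Asb11 and Asb8, held most of the summed member FPKM in knockout, as they did in WT.

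The knockout libraries did not fall alike. Library 2 had the highest level of 5 members, with Asb14 at 3.94%, Asb15 at 11.4% and Asb2 at 31.8% of the WT mean. Library 4 had the lowest level of 6 members, with Asb14 at 1.92%, Asb5 at 9.50% and Asb10 at 10.5% of the WT mean. Library 4 was also the library with the most transcripts of the atrial marker list, and library 2 had the highest sum of cardiomyocyte markers among the knockout libraries. The lowest cardiomyocyte sum was in knockout library 1 (18362.6 FPKM, against 19841.5 FPKM in library 4). Library 1 was the highest knockout library for 2 members, Asb10 and Asb11, and the lowest for 2, Asb12 and Asb15. A relation of the members to these sums was not tested.

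**Figure D2:**
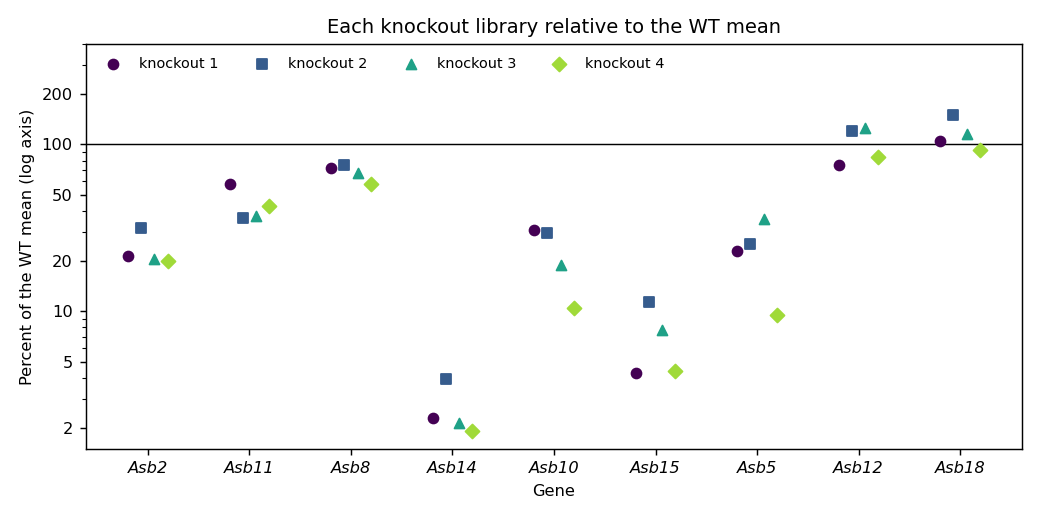
Level of each Asb member in each knockout library as a percent of the WT mean, on a log axis with WT at 100. Library 4 is the lowest for 6 of the 9 members and library 2 the highest for 5, and Asb14 stays below 4% in all 4 libraries.

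Marker lists of the cell types a ventricle can hold were read beside these values, and in bulk tissue fewer cells of a type cannot be told apart from less RNA per cell. The 10 cardiomyocyte markers summed to 18363 to 28385 FPKM in knockout and 54432 to 60442 FPKM in WT, 39.5% of WT. Limma called 9 of them lower (7 after quantile normalization) and the Z-disc gene Actn2 higher. Among all genes tested 16.4% were lower and 44.9% higher, or 25.6% and 28.7% after quantile normalization. Both groups thus held cardiomyocyte markers, at unequal levels. These markers alone do not test the ventricle label, and the atrial markers are given below. The summed skeletal muscle markers were 38.1 to 62.8 FPKM in knockout and 8.79 to 14.0 FPKM in WT. Mybpc2 alone averaged 40.1 FPKM of the mean knockout sum of 48.6 FPKM, against 4.55 FPKM in WT. Limma called 3 of the 4 tested higher (Mybpc2, Tnnt3 and Mylpf) and 1 lower, Tnni2, from 5.61 to 0.333 FPKM. The adult fast myosin genes Myh1, Myh2 and Myh4 were below the minimum.

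The 5 atrial markers summed to 175, 112, 32.1 and 1725 FPKM in knockout libraries 1 to 4 and to 8.24 to 10.3 FPKM in WT. Of these markers, 4 were called higher, and Sln was listed at 0 in every WT library. This and the following counts stand beside 44.9% higher and 16.4% lower among all genes tested. The shares were 27.0% and 26.9% after median-of-ratios rescaling and 28.7% and 25.6% after quantile normalization. Fibroblast markers summed to 1035 to 1727 FPKM in knockout and 855 to 1175 FPKM in WT (4 of 7 higher, 2 or 3 after rescaling), endothelial markers to 325 to 401 and 312 to 394 FPKM (1 higher and 2 lower of 7, 0 and 3 after either rescaling), mural cell markers to 357 to 469 and 393 to 562 FPKM (2 higher and 3 lower of 7, 1 and 3 after either rescaling), and immune markers to 22.4 to 41.1 and 30.2 to 40.7 FPKM (0 of 5 tested passed in either direction by limma). At an unadjusted limma p under 0.05, 0 immune markers were higher or lower, and 1 was lower after median-of-ratios rescaling. The part of these markers in the Asb values was not tested.

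The authors' deposited table also gives a pooled value per group. By the authors' deposited table, Asb14 had 56.1 FPKM in WT and 1.20 FPKM in knockout, 2.13% of WT, and Asb15 had 26.6 and 1.54 FPKM, 5.77%. For Asb12 the authors' deposited table gives 11.6 and 9.73 FPKM, 83.6% of WT, and for Asb18 it gives 3.02 and 2.96 FPKM, 97.9%. Over 11823 genes the median ratio of the authors' pooled value to the library mean in the deposited table was 1.29 in WT and 1.06 in knockout, and each of the 9 pooled member ratios lay below that of the library means. The order of the members by size of fall began with Asb14 and Asb15 in both sources.

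Of the other 9 Asb genes, 6 passed the minimum, and 3 were called higher and 0 lower by limma (also 0 lower at an unadjusted p under 0.05), beside 44.9% higher and 16.4% lower among all genes tested, with a median log2(FPKM + 1) change of 0.27. Asb6 rose from 4.85 ± 0.620 to 10.5 ± 0.860 FPKM (log2 change 0.97 ± 0.097 SE, limma adjusted p = 3.35e-05, n = 4). Asb1 rose from 6.02 ± 0.338 to 12.4 ± 1.22 FPKM (log2 change 0.93 ± 0.084 SE, limma adjusted p = 2.04e-05, n = 4). In both genes every knockout library lay above every WT library.

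Asb7 had a smaller difference, 2.19 against 2.94 FPKM (log2 change 0.30, limma adjusted p = 0.0302), and this call was lost after either rescaling and with the replicate number as a block (adjusted p = 0.0686). It was also lost without knockout library 1 or 4 or WT library 1, 3 or 4, the limma adjusted p with 1 library left out running from 0.0182 to 0.0761. Asb3, Asb4 and Asb13 did not pass, with log2(FPKM + 1) changes of 0.24, -0.15 and -0.023 and limma adjusted p of 0.111, 0.515 and 0.847, and Asb13 was called lower (-0.27 and -0.24) after the 2 rescalings. Asb9, Asb16 and Asb17 were below the minimum, Asb9 being listed at 0 in all 8 libraries.

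**Figure D3:**
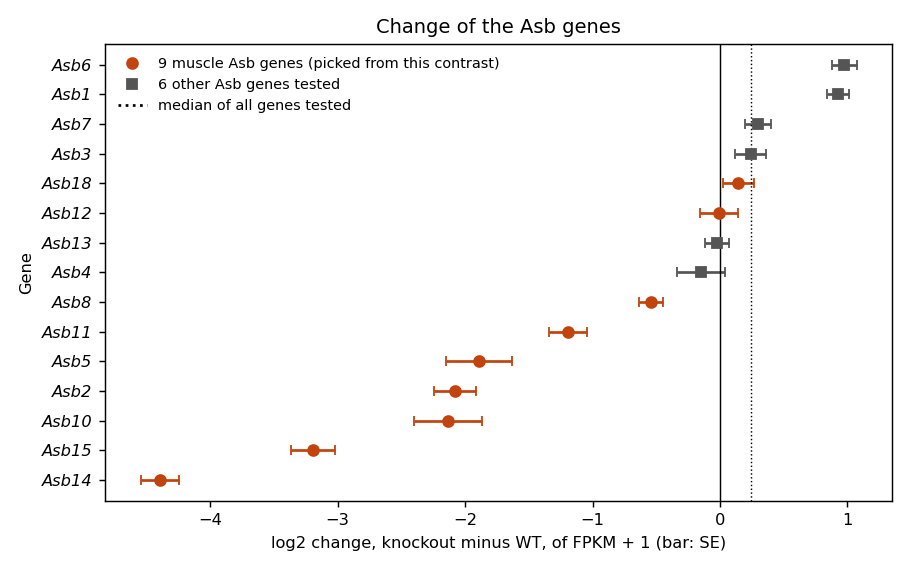
Knockout minus WT change of the Asb genes on the log2(FPKM + 1) scale, points with SE from the limma fit (4 libraries per group); circles are members, squares are the 6 other Asb genes tested, and the dotted line is the median of all genes tested. Members run from -4.40 (Asb14) to 0.14 (Asb18), the latter changing sign after rescaling, and the other tested Asb genes from -0.15 to 0.97.

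The partners with which Asb proteins build a ligase were read next. All 14 genes of the Cullin 5 core and neddylation list were tested, and limma called 10 higher and 0 lower (also 0 lower at an unadjusted p under 0.05), beside 44.9% higher and 16.4% lower among all genes tested, with a median log2(FPKM + 1) change of 0.55. After rescaling, 7 (medians of ratios, 27.0% of all genes) or 8 (quantiles, 28.7%) were higher and 2 lower. The scaffold Cul5 measured 11.6 FPKM in WT and 12.3 FPKM in knockout (log2 change 0.085, limma adjusted p = 0.379, and -0.17 after either rescaling) and its RING partner Rnf7 66.1 and 68.5 FPKM (0.050, limma adjusted p = 0.581). Rnf7 was called lower, by -0.23 and -0.21, after the 2 rescalings.

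The elongins that bind the SOCS box were higher. Tceb1, which encodes elongin C, rose from 56.5 ± 6.25 to 89.5 ± 9.75 FPKM (log2 change 0.65, limma adjusted p = 0.000581, n = 4). Tceb2, which encodes elongin B, rose from 275 ± 9.50 to 422 ± 34.2 FPKM (0.61, limma adjusted p = 0.000131, n = 4). Among the neddylation genes, Nedd8 rose from 137 to 229 FPKM (0.73, limma adjusted p = 0.000314) and its conjugating enzyme Ube2f from 32.1 to 59.9 FPKM (0.88, limma adjusted p = 9.06e-05). Cand1, which exchanges the substrate adaptors of cullins, rose from 5.80 to 10.03 FPKM (0.70, limma adjusted p = 2.39e-05). Nae1, Uba3, Dcun1d1 and the ligase Arih2 were called higher, by 0.49 to 0.69. The Nae1 call was lost after both rescalings (limma adjusted p = 0.144 and 0.129) and the Uba3 call after median-of-ratios rescaling (limma adjusted p = 0.0562). Cul2, Ube2m, Cul5 and Rnf7 did not pass, but Cul2 was called lower after the 2 rescalings (-0.37 and -0.36, limma adjusted p = 0.00188 and 0.00162). Rbx1, the RING partner of other cullins, was called higher at 0.21 (limma adjusted p = 0.0464) and turned to -0.063 and -0.069 after rescaling. The Rbx1 call was also lost with the replicate block (adjusted p = 0.0725) and without any 1 of 6 libraries, all but knockout library 2 and WT library 4, the limma adjusted p with 1 library left out running from 0.0274 to 0.121.

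Of 16 tested SOCS box genes outside the Asb family, limma called 9 higher and 2 lower (7 and 2 after either rescaling), beside 44.9% higher and 16.4% lower among all genes tested, with a median log2(FPKM + 1) change of 0.56. Spsb2, a SPRY domain adaptor, rose from 1.27 ± 0.118 to 10.4 ± 2.97 FPKM (2.30, limma adjusted p = 6.89e-06, n = 4). Wsb1 rose from 13.8 to 41.7 FPKM (1.51, limma adjusted p = 3.44e-05) and Wsb2 from 40.7 to 88.6 FPKM (1.09, limma adjusted p = 3.42e-05), both WD repeat adaptors. Socs3, a feedback inhibitor of cytokine receptors, rose from 1.52 to 5.88 FPKM (1.39, limma adjusted p = 0.000807). The 2 lower genes, named after their values were seen, were the cytokine feedback inhibitor Cish, from 46.4 to 26.2 FPKM (-0.79, limma adjusted p = 0.00363), and Spsb1 (-0.26, limma adjusted p = 0.0357). The Spsb1 call was lost with the replicate block (adjusted p = 0.0659) and without knockout library 2 or 3 or WT library 1 or 3, the limma adjusted p with 1 library left out running from 0.0184 to 0.0991.

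Of 20 tested other ubiquitin ligase genes of striated muscle, limma called 11 lower and 4 higher, beside 16.4% lower and 44.9% higher among all genes tested, with a median log2(FPKM + 1) change of -0.51. After either rescaling 13 were lower and 2 higher, beside 26.9% and 27.0% of all genes by medians of ratios. With the replicate block 9 were lower, and with 1 library left out 9 to 12. Klhl38, of the kelch family that serves Cullin 3 ligases, fell from 18.6 ± 4.12 to 0.895 ± 0.167 FPKM (-3.35 ± 0.14 SE, limma adjusted p = 4.49e-07, n = 4), and all its knockout libraries were below all WT libraries. The related Klhl33 fell from 10.1 ± 2.28 to 0.496 ± 0.139 FPKM (-2.88, limma adjusted p = 1.14e-06, n = 4). The RING ligase Rnf207, known for its effect on cardiac repolarization, fell from 35.9 to 7.68 FPKM (-2.13, limma adjusted p = 1.37e-05), and the F-box gene Fbxl22 from 17.4 to 4.86 FPKM (-1.72, limma adjusted p = 0.000241).

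The atrophy ligases Trim63 (MuRF1) and Fbxo32 (atrogin-1), named after their values were seen, were also lower. Trim63 fell from 126 to 59.5 FPKM (-1.08, limma adjusted p = 5.48e-05) and Fbxo32 from 26.4 to 13.2 FPKM (-0.97, limma adjusted p = 0.000601). The 4 higher genes were Fbxo30, Klhl41, Mdm2 and Traf6, of which Klhl41 and Traf6 did not pass after either rescaling. Klhl41 also did not pass without knockout library 2 or 3 or WT library 2 or 4, its limma adjusted p running from 0.00723 to 0.0682 with 1 library left out.

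**Figure D4:**
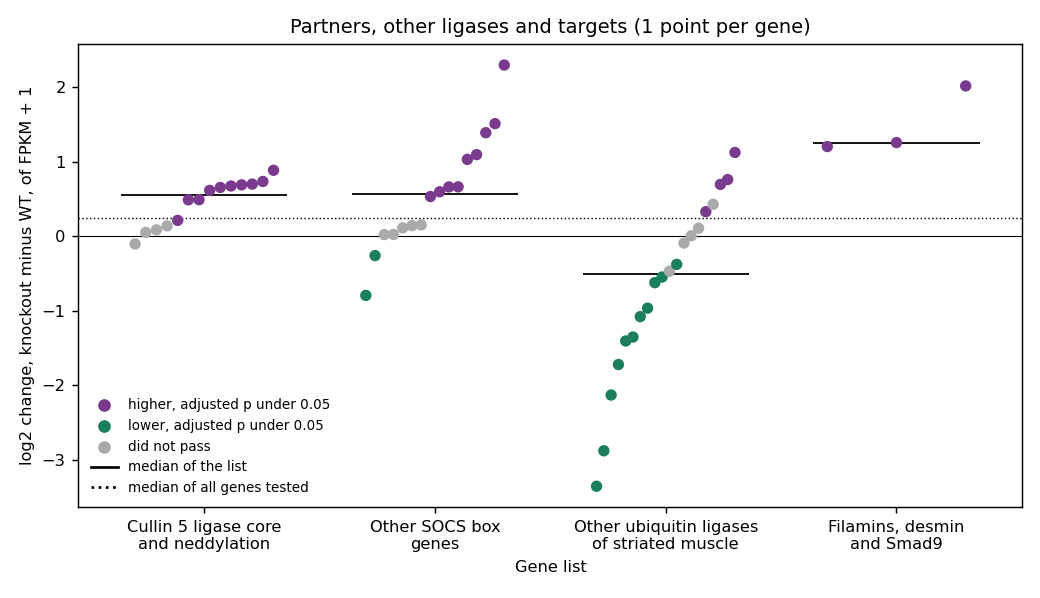
Knockout minus WT change on the log2(FPKM + 1) scale for each tested gene of the Cullin 5, SOCS box, muscle ligase, and filamin and desmin lists; points are genes coloured by their limma call, solid lines are list medians and the dotted line is the median of all genes tested. The muscle ligase median lies at -0.51 and that of the Cullin 5 and neddylation list at 0.55. Of the latter list, 2 genes not called here, Rnf7 and Cul2, were called lower after rescaling.

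A list of muscle proteins reported as targets of Asb2 ligases was read because Asb2 was the most abundant member. The list is given in part. Of the genes reported here, 3 were tested and limma called 3 higher and 0 lower, beside 44.9% higher and 16.4% lower among all genes tested. The calls were the same after both rescalings, where 27.0% (medians of ratios) and 28.7% (quantiles) of all genes were higher. Flnc, the muscle filamin, rose from 29.7 ± 1.46 to 126 ± 33.6 FPKM (2.01, limma adjusted p = 1.09e-05, n = 4) and Flna from 36.9 to 90.7 FPKM (1.25, limma adjusted p = 0.000115). Des, which encodes the intermediate filament protein desmin, rose from 763 ± 23.5 to 1772 ± 256 FPKM (1.20, limma adjusted p = 2.15e-05, n = 4). Smad9 was below the minimum. These are transcript levels and say nothing of the amounts of the proteins that a ligase would act on.

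The genes next to the members in the genome were examined for falls that follow position. Rows without numbers, of several symbols, or named as predicted genes, RIKEN clones, microRNAs or other small RNAs were left out first. The remaining rows gave 18 neighbours and 0 that overlap a member. Of the 11 neighbours that passed the minimum limma called 6 higher, 3 lower and 2 neither, beside 44.9% higher and 16.4% lower among all genes tested. Beside Asb14, Appl1, 3.73 kb away, was slightly higher, 8.24 against 11.0 FPKM (0.39, limma adjusted p = 0.00386, not passed after either rescaling), and Pde12, 225 kb away, rose from 3.23 to 5.41 FPKM (0.60, limma adjusted p = 0.000536). Neither of these neighbours of Asb14 therefore fell with it.

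Beside Asb15 both neighbours were lower. Ndufa5, a subunit of respiratory complex I whose row lies 0.456 kb away, fell from 709 ± 52.0 to 413 ± 49.6 FPKM (-0.78, limma adjusted p = 0.000142, n = 4). Lmod2, the actin nucleator leiomodin 2, 24.6 kb away, fell from 313 to 143 FPKM (-1.11, limma adjusted p = 0.000802). Beside Asb8, Pfkm, the muscle phosphofructokinase, 2.19 kb away, fell from 405 to 107 FPKM (-1.94, limma adjusted p = 1.21e-05), a larger change than that of Asb8.

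The tested neighbours of the other reduced members were called higher. Otub2 beside Asb2 rose from 2.22 to 6.54 FPKM (1.19, limma adjusted p = 0.000574), and Spcs3 beside Asb5 from 18.1 to 35.7 FPKM (0.94, limma adjusted p = 2.46e-05). Abcf2 beside Asb10 was at 28.5 and 37.2 FPKM (0.37, limma adjusted p = 0.00181) and Piga beside Asb11 had a small difference (0.29, limma adjusted p = 0.0425), and both calls were lost after either rescaling. The Piga call was also lost with the replicate block (adjusted p = 0.0982) and without any 1 of 7 libraries, all but WT library 3, the limma adjusted p with 1 library left out running from 0.0334 to 0.110. Amer1 and Zc4h2, the neighbours of Asb12, did not pass (0.31 and 0.25, limma adjusted p = 0.0557 and 0.225), although Amer1 passed without WT library 2 (0.40, limma adjusted p = 0.0141).

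**Figure D5:**
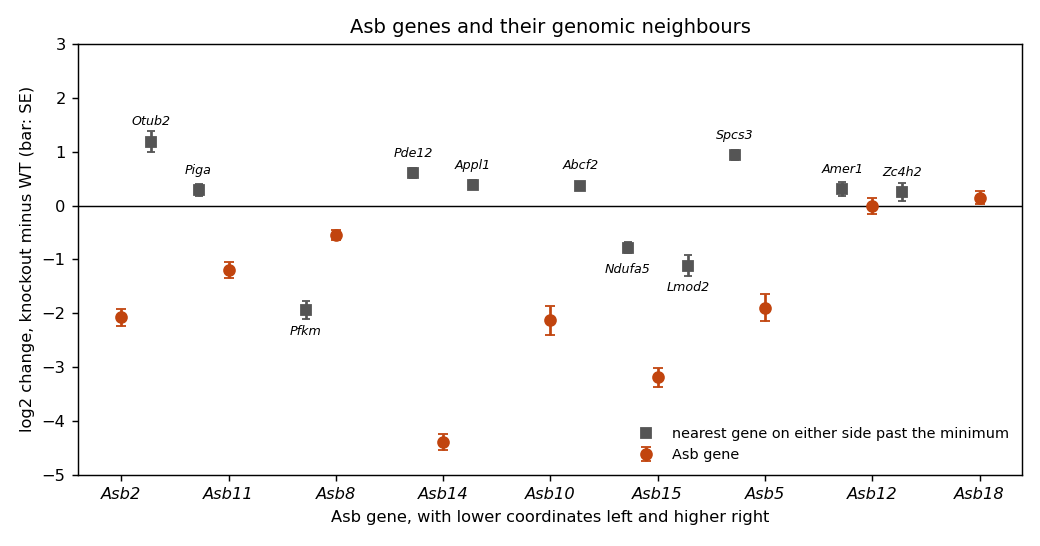
Knockout minus WT change on the log2(FPKM + 1) scale, with SE bars, of each Asb member (circles) and of its tested neighbours (squares), drawn left or right of the member by coordinate. Both neighbours of Asb14 (-4.40) lie above 0 (Appl1 not called after rescaling), and Ndufa5, Lmod2 and Pfkm lie below it.

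The genes whose library values, set relative to their WT mean, lay nearest to those of Asb14 were named by the root-mean-square difference of log2(FPKM + 1) over the 8 libraries, among 11291 genes. The nearest were Pln, the inhibitor of the sarcoplasmic calcium pump (difference 0.15, 3420 FPKM in WT and 156 FPKM in knockout), the muscle ribosomal protein gene Rpl3l (0.22, 179 and 8.23 FPKM), Ogdhl (0.27, 32.1 and 0.666 FPKM), the myoglobin gene Mb (0.28, 12066 and 715 FPKM) and Lrtm1 (0.34, 60.0 and 1.53 FPKM). Their resemblance was the reason they were named, so it is given without a test. It holds for log2(FPKM + 1), where the added 1 FPKM shrinks the fall of Asb14, and another pseudocount was not tried here. In FPKM the mean of Asb14 was 38.8-fold lower in knockout. Those of Pln, Rpl3l, Ogdhl, Mb and Lrtm1 were 21.9-, 21.8-, 48.1-, 16.9- and 39.2-fold lower. Among the members Asb15 came closest (0.88, rank 13), and Klhl38 (0.76) ranked 10.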

How the data were processed

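Poly(A) RNA of 8 ventricle libraries, 4 per group, was measured. Per the submitters' processing notes, reads were aligned to mm10 with TopHat 1.0.0, and the series' design text names Cufflinks for assembly and comparison. Versions of Cufflinks and Cuffdiff, the annotation and the strand setting of the counting: not given in the sources used here. Values of each gene in each library were deposited as FPKM by the authors, per the file headers. Of 23847 rows, 23535 hold numbers, and 0.001, the lowest number in the file, was set to 0.

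Values were analysed as log2(FPKM + 1) with limma 3.58.1 in R 4.3.3 (eBayes with trend, two-sided, all 8 libraries, no covariate), for genes that averaged 1 FPKM or more, with Benjamini-Hochberg adjustment at 0.05 over all of them. The fitting step was tested on simulated data. The authors' pooled FPKM values were read as deposited. Total fragments are unknown, so no counting error could be given.

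Members and gene lists were chosen with earlier results of these data known, and 1 listed gene is not reported here. Named were all members, the other Asb genes, the Cullin 5 core, up to 4 called genes with the largest change in each further list, neighbours of the members, Med1 and the 5 genes nearest to Asb14. Alternatives were 2 rescalings, another pseudocount, other minimum levels, other limma settings, a replicate block and each library left out. Libraries of equal replicate number showed little likeness: the correlations of their deviations were 0.14, 0.033, -0.041 and -0.014. Pairing by anything other than the replicate number was not examined. Protein sequences were not used here. Exon numbers are those of the longest transcript of the GENCODE annotation, and promoter windows are from RefSeq on GRCm38.p6.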

Additional observations from a re-analysis of the deposited data

Results flagged for a closer look

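Within each group of 4 libraries, the highest or lowest library was compared with its nearest neighbour by Dixon's ratio of the gap to the range. Of 170 groups tested (85 genes, not all of them named above), 7 had a library that stood apart, and chance gives about 1 in 20. Of these, 2 were members. Asb2 in knockout library 2 was at 51.3 FPKM, with the other knockout libraries at 32.3 to 34.5 FPKM. Asb12 in WT library 2 was at 7.94 FPKM, with the others at 9.37 to 9.41 FPKM.

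Among the other genes, Wsb1 was low in knockout library 1 (28.8 FPKM, others 45.0 to 46.9 FPKM) and Stub1 low in knockout library 4 (52.2 FPKM, others 59.4 to 60.6 FPKM). High WT libraries were found for Fbxo30 in library 3 (8.12 FPKM, others 7.07 to 7.22 FPKM), Klhl38 in library 1 (24.8 FPKM, others 16.1 to 16.9 FPKM) and Spcs3 in library 1 (20.4 FPKM, others 17.1 to 17.5 FPKM).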

How the results depend on the processing

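The 7 members with separated groups had a negative log2(FPKM + 1) change under each of the 17 alternatives. Over them the log2(FPKM + 1) change ranged from -5.20 (pseudocount of 0.1) to -4.29 for Asb14, -3.86 to -3.08 for Asb15, -2.35 to -1.998 for Asb2, -2.41 to -1.85 for Asb10, -2.19 to -1.63 for Asb5, -1.47 to -1.12 for Asb11 and -0.82 to -0.47 for Asb8. Asb12 (-0.0083 as reported) was 0.12 with array weights and ran from -0.11 to 0.11 with 1 library left out, and was -0.26 after either rescaling. Asb18 was -0.057 after median-of-ratios rescaling and -0.021 after quantile normalization. Rnf7 was -0.23 and -0.21, and Rbx1 -0.063 and -0.069, under these 2 rescalings. Genes called higher numbered 5372, or 3237 and 3437 after the 2 rescalings, and genes called lower 1964, or 3223 and 3066. Under both rescalings the muscle ligases called higher went from 4 to 2 and the other Asb genes called lower from 0 to 1. In the Cullin 5 core and neddylation list the genes called lower went from 0 to 2, Rnf7 and Cul2. SOCS box genes called lower were 1 with the replicate block and 1 to 2 with a library left out, against 2. The cause was not tested. With the replicate block 5089 genes were higher and 1867 lower, and 2 of the 8 libraries correlated best with their own number. Also followed were 76 genes outside the members: tested genes of the lists except cell type markers, tested neighbours, Med1 and the 5 nearest to Asb14. Of these 76, 45 kept both their sign and their call in every alternative in which they were tested. The unknown depth limits what can be said of genes near 1 FPKM, such as Asb14 and Asb15 in knockout.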
